A study of Mus musculus with 14 samples.

Results

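The genes described here are 10 integrin subunits that cells use to hold on to extracellular matrix: the alpha subunits Itga1, Itga2, Itga3, Itga5, Itga6, Itga8 and Itga9, and the beta subunits Itgb1, Itgb4 and Itgb8. They were chosen by name, by what the proteins do, with earlier results of these data known. Their symbols were matched to the gene identifiers of a table of read counts for 42687 mouse genes. All 10 were found in the table, and 17 further integrin subunits serve as their neighbours below. The counts come from 14 RNA-seq libraries of retinal pigment epithelium (RPE), each from the RPE cells of both eyes of 1 male C57BL/6J mouse aged 3 months, in a study of mice that lose Clic4 in the RPE.

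The knockout (KO) mice were Best1-Cre+/-; Clic4f/f: both copies of Clic4 are flanked by loxP sites, and Cre is driven by the RPE promoter of Best1 from the second week after birth. There were 7 KO libraries and 7 control libraries in 3 sets that share no library. In the WT set, 3 KO mice were set against 3 wild types. In the Ctrl set, 2 KO mice were set against 2 Clic4f/f mice without Cre, littermates in the study's breeding. In the CreCtrl set, 2 KO mice were set against 2 Best1-Cre+/- mice without the floxed allele. Each kind of control occurs in 1 set only, so effects of control genotype and of set cannot be told apart. The cells were shaken off trypsin-treated eyecups after hyaluronidase treatment and removal of the retina, so fragments of other layers of the eye could be carried along.

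An integrin is a pair of 1 alpha and 1 beta chain that spans the plasma membrane, with a head that binds matrix proteins and a tail that recruits talin, kindlin and other adaptors to the actin cytoskeleton. Itgb1 pairs with each of the alpha chains listed here: Itga1 and Itga2 make collagen receptors, Itga3 and Itga6 laminin receptors, Itga5 the main fibronectin receptor, Itga8 a receptor for nephronectin and other ligands with an RGD motif, and Itga9 a receptor for tenascin-C and related ligands. Itgb4 pairs with Itga6 alone and ties the hemidesmosomes of epithelia to keratin through plectin, and Itgb8 pairs with Itgav in a receptor that activates latent TGF-β. The RPE sits on Bruch's membrane, whose inner layer is the basement membrane of the RPE itself.

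Library totals ran from 9828293 to 12363580 counts in WT, from 16040454 to 16370963 in the KO of the WT set, and from 14116835 to 32384166 in the other 2 sets. Clic4, the targeted gene, was at 218 to 230 CPM in WT, 62.1 to 71.4 in Ctrl, 86.5 to 108 in CreCtrl and 9.78 to 33.9 in the 7 KO libraries, so every KO library lay below the controls of its set. By edgeR it fell against WT (log2 fold change -3.32, adjusted p = 3.33e-05) and CreCtrl (-2.16, adjusted p = 0.0132), and it was not called against Ctrl (-1.61, adjusted p = 0.333). CPM, the read count of a gene relative to the total of its library, were scaled by TMM factors over all 14 libraries. The 10 RPE markers checked were present at 1 CPM or more in every library, but their sum was 16430 to 23390 CPM in WT against 46780 to 58150 in Ctrl and CreCtrl and 72150 to 82860 in KO. In an edgeR fit of all 14 libraries that adjusts for set, 9 of them were called higher and 1 lower. Best1 had log2 fold changes of -1.82 against WT, 0.08 against Ctrl and -1.11 against CreCtrl, not called by edgeR (adjusted p = 0.0616, 0.988 and 0.105). Genes of other cell types moved with the groups, and their values are given with the results below.

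By edgeR's quasi-likelihood test with adjustment over all genes (called at an adjusted p under 0.05), Itga5, Itgb1 and Itgb4 fell and Itgb8 rose in KO against WT, out of 9 members that passed the filter on low counts. Of all genes in that comparison 19% were lower and 16.1% higher. Against CreCtrl, Itga5, Itga8 and Itgb4 fell and Itgb8 rose among 10 members tested, where 12.2% of all genes were lower and 3.6% higher. Against Ctrl, edgeR called 0 of the 10 members and 0% of all 15287 genes in either direction. At an unadjusted p under 0.05 it had 4 members and 12.1% of all genes there, and DESeq2 called Itga2, Itga6, Itga8 and Itgb4 lower, with 7.57% of all genes lower and 0.0641% higher.

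With the 7 KO and 7 control libraries in 1 fit that adjusts for set, 5 members fell (Itga2, Itga5, Itga8, Itgb1 and Itgb4), Itgb8 rose, and Itga1, Itga3, Itga6 and Itga9 were not called. The share of all genes was 18.6% lower and 20.1% higher. The median log2 fold change of the 10 members was -0.71 beside -0.01 over all genes. This fit leans on the WT set: without that set it called 2 members, Itga8 and Itgb4. In bulk RNA of this kind, fewer cells of a type that carries a transcript and less of it per cell cannot be told apart.

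**Figure D1:**
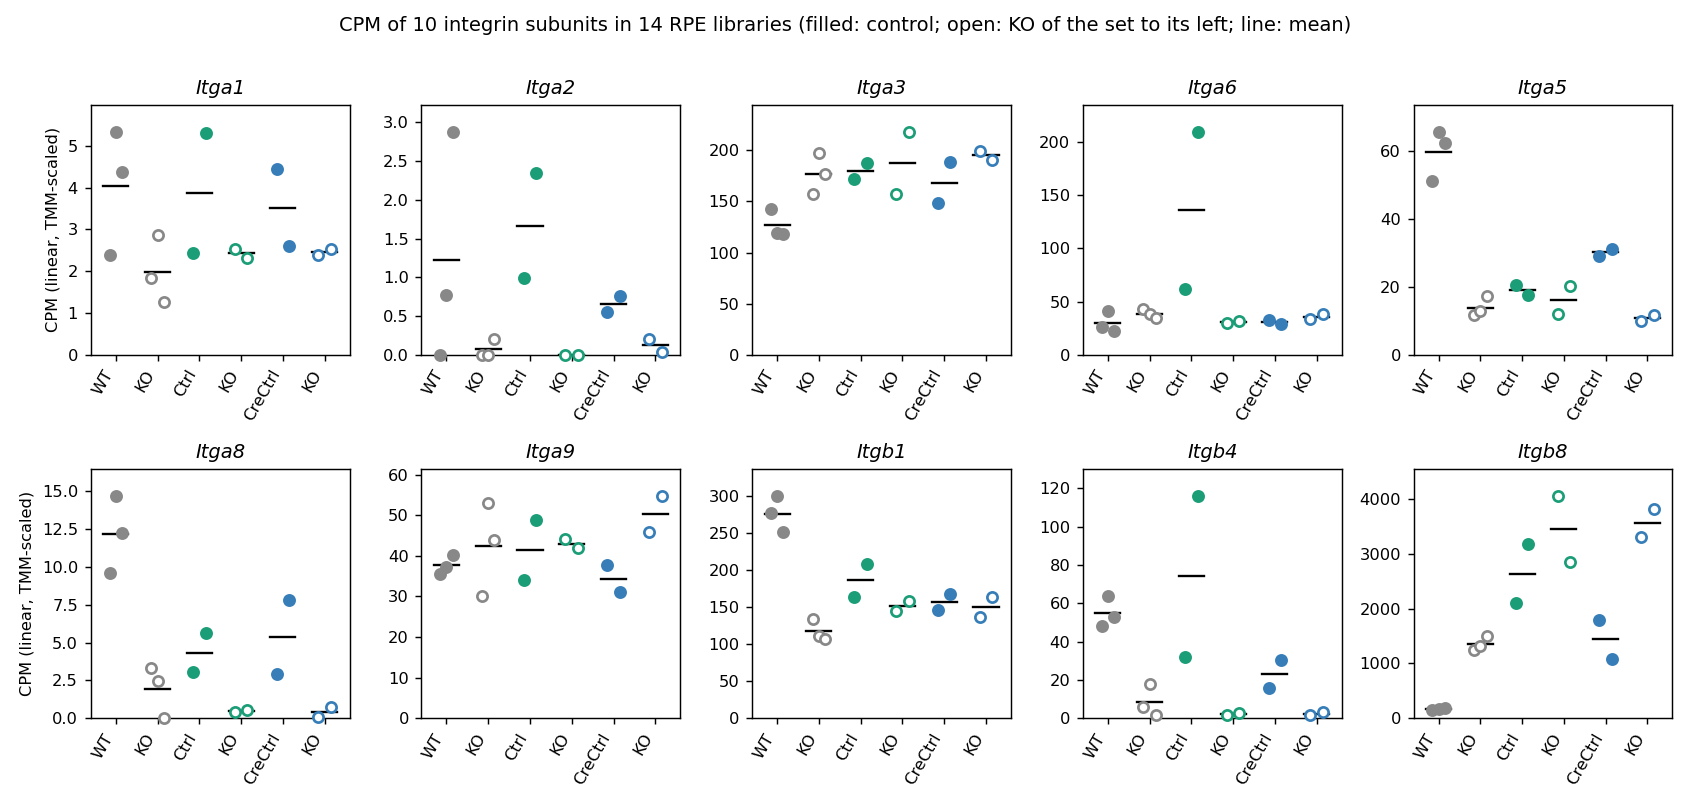
CPM of each of the 10 integrin subunits in the 14 libraries, on linear axes that start at 0, with 1 point a library, filled for controls and open for the KO of the set to its left, and a line at the group mean. Itgb4 and Itga8 sit lower in KO than in the controls of all 3 sets, and Itgb8 is at 148.5 to 193 CPM in WT and between 1078 and 4064 CPM in every other library.

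**Figure D2:**
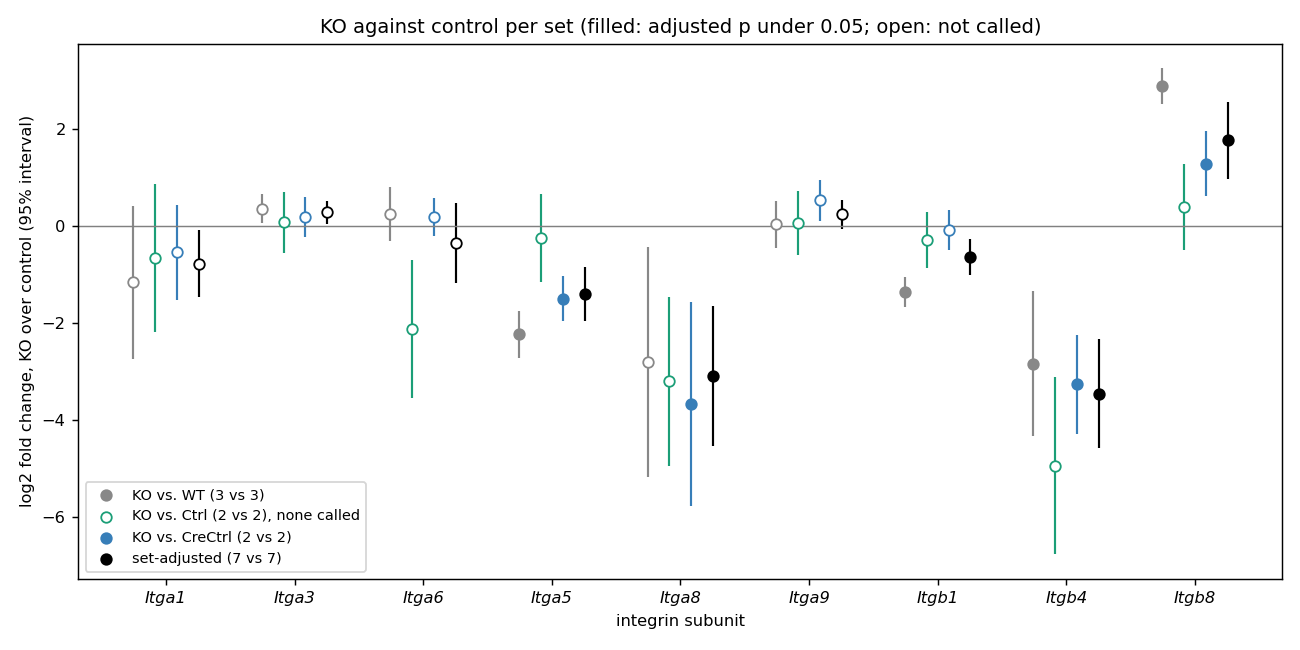
Log2 fold change of KO over control with its 95% interval for 9 of the subunits, within each set and in the set-adjusted fit, filled where the adjusted p was under 0.05. Itga2 is left out because its libraries at 0 make the fitted value depend on the prior count. Itgb4 lies between -4.95 and -2.84 in every comparison.

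The RefSeq promoter windows of Itgb8, Itgb1, Itga5 and Itga8, members that were called, are printed here. They run from 250 bases before to 50 after an annotated start (GRCm38.p6, 300 bases, 5′ to 3′ on the gene's strand). Windows were found for 8 of the 10 members, and for Itga6 and Itgb4 none was used here. That of Itga2, called in the set-adjusted fit on few counts, is not printed. Capitals mark the letters GGGCGG, the core of the GC box, on either strand. The Itgb8 window is chr12:119238227-119238526, the Itgb1 window chr8:128685404-128685703, the Itga5 window chr15:103366742-103367041 and the Itga8 window chr2:12301895-12302194. All but the Itgb1 window lie on the minus strand. The Itgb8 window lies inside the gene as GENCODE M21 places it, with its minus-strand start at 119238802.
Itgb8: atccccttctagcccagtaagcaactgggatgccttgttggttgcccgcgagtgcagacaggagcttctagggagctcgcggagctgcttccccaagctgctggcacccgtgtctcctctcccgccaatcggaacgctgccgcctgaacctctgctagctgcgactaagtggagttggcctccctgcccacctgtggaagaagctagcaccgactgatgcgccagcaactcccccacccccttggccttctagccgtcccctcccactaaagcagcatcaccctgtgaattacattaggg
Itgb1: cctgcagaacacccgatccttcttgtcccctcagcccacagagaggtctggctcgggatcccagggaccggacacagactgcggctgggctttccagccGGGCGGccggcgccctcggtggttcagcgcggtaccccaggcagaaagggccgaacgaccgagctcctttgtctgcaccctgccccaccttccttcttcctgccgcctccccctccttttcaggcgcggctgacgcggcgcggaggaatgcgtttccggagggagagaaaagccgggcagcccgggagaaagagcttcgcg
Itga5: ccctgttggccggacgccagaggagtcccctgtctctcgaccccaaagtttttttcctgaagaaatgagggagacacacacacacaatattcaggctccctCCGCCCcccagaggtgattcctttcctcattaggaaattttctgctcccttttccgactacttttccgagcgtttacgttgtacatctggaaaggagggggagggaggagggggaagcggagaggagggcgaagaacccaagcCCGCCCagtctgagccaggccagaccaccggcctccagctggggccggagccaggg
Itga8: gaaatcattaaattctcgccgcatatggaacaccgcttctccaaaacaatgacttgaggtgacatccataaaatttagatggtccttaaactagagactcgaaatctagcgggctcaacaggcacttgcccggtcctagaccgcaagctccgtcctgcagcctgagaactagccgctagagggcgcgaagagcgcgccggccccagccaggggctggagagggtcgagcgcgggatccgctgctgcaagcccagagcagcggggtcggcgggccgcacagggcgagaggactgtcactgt
GGGCGG was found 2 times in the Itga5 window, 1 time in that of Itgb1 and 0 times in those of Itgb8 and Itga8, and 35.7% of all 32851 windows held it. The letters TGACTCA (AP-1), TAATCC (OTX), CACGTG (E-box) and CATGTG (M-box) were searched on both strands too and none was found in these 4 windows. They occur in 5.2%, 7.06%, 7.15% and 14.2% of all windows. A match or its absence describes these letters in this window and says nothing of a factor. Among the other members, AP-1 letters were found 1 time, in the Itga9 window, which begins at an annotated start inside the gene. The Itga2 window held GGGCGG 1 time, and Itga3 has a pair of windows with 3 and 1 matches to GGGCGG, the latter also with 1 match to CATGTG. None of the 5 motifs was found in the Itga1 window.

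Itgb1, the common beta chain, had the highest level per length in WT of the 10 members, and of the 3 sets only the WT set called it lower in KO. In WT the libraries read 277, 301 and 252 CPM, and in the KO of that set 135, 111.6 and 107. In the Ctrl set they read 164 and 209 in Ctrl and 145 and 159 in KO, and in the CreCtrl set 146 and 168 in CreCtrl and 137 and 164 in KO. The KO libraries lay below the controls in the WT and Ctrl sets. In the CreCtrl set the groups overlapped, with 1 KO library below both controls and 1 between them. Itgb1 fell in KO against WT, by 1.37 on the log2 scale (SE 0.136, adjusted p = 0.000149), which is 2.59-fold. Against Ctrl the log2 fold change was -0.30 (95% interval -0.88 to 0.28, adjusted p = 0.784) and against CreCtrl -0.09 (-0.51 to 0.32, adjusted p = 0.727). The set-adjusted log2 fold change was -0.64 (SE 0.175, adjusted p = 0.0105), and without the WT set it was -0.21 (adjusted p = 0.325).

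Itgb4, the hemidesmosome beta chain, lay lower in KO in all 3 sets. WT libraries read 48.3, 63.95 and 52.8 CPM against 5.99, 17.9 and 1.74 in the KO of that set. Ctrl libraries read 31.9 and 116 CPM against 1.83 and 2.92 in KO, and CreCtrl libraries 16 and 30.6 against 1.74 and 3.13. Every KO library lay below every control of its set, and the lowest control of the series, at 16 CPM, lay below the 17.9 CPM of KO replicate 2 of the WT set. The next highest of the 7 KO libraries was at 5.99 CPM. Itgb4 fell 7.18-fold against WT (log2 fold change -2.84, SE 0.651, adjusted p = 0.0095; -3.87 without KO replicate 2 of that set) and 9.68-fold against CreCtrl (log2 fold change -3.27, SE 0.431, adjusted p = 0.00707). Against Ctrl the log2 fold change was -4.95 (SE 0.733) with an adjusted p of 0.106 by edgeR and 6.49e-12 by DESeq2. Leaving out single libraries there gave log2 fold changes of -5.59 to -3.75 and adjusted p-values of 0.00302 to 0.17 by edgeR. Of these only the fit without Ctrl replicate 1 made the call, with Ctrl replicate 2 as the lone control. Over all sets Itgb4 fell 11-fold (log2 fold change -3.47, SE 0.524, adjusted p = 0.000373), and the value was -4.11 without the WT set.

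Itgb8, which pairs with Itgav, was the member that rose. WT libraries read 148.5, 161 and 193 CPM, and the KO of that set 1241, 1321 and 1500 CPM. Ctrl libraries read 2097 and 3174 CPM against 4064 and 2845 in KO, and CreCtrl libraries 1798 and 1078 against 3309 and 3826. KO lay above control in the WT and CreCtrl sets. In the Ctrl set the groups overlapped, with 1 KO library above both controls and 1 between them. Itgb8 rose 7.33-fold against WT (log2 fold change 2.87, SE 0.162, adjusted p = 2.24e-05) and 2.43-fold against CreCtrl (1.28, SE 0.287, adjusted p = 0.0311), a call that was lost without KO replicate 2 of the CreCtrl set (adjusted p = 0.158). Against Ctrl the log2 fold change was 0.39 (95% interval -0.49 to 1.27, adjusted p = 0.834). The set-adjusted value was 1.76 (SE 0.369, adjusted p = 0.00253) and 0.82 without the WT set (adjusted p = 0.115). The controls themselves spread widely: the mean was 168 CPM in WT, 1438 in CreCtrl and 2635 in Ctrl, and the KO of the WT set, at a mean of 1354, was below the CreCtrl mean. Among the controls the summed RPE markers were at 16430 to 23390 CPM in WT, 50600 to 58150 in CreCtrl and 46780 to 47280 in Ctrl. The part of RPE content in the Itgb8 difference was not tested.

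Of the laminin receptor chains, Itga3 was nearly level. It read 142, 119 and 119 CPM in WT and 157, 198 and 177 in the KO of that set, 172 and 187 in Ctrl and 158 and 218 in its KO, and 148.3 and 188 in CreCtrl and 199 and 191 in its KO. KO lay above control in the WT and CreCtrl sets only. No set called it, with log2 fold changes of 0.34 (adjusted p = 0.0742), 0.07 (adjusted p = 0.974) and 0.18 (adjusted p = 0.493) against WT, Ctrl and CreCtrl, and the values against Ctrl and CreCtrl were both -0.05 when library size alone was used for scaling. The set-adjusted value was 0.27 (95% interval 0.03 to 0.52, adjusted p = 0.0668).

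Itga6, the partner of both Itgb1 and Itgb4, stood apart in 1 group. It read 25.9, 41.2 and 21.9 CPM in WT and 43, 38.6 and 34.4 in the KO of that set, 33.1 and 28.8 in CreCtrl and 33.2 and 38.4 in its KO, and 30.2 and 32 in the KO of the Ctrl set. The Ctrl libraries read 61.9 and 210 CPM, the highest values of the 14. Against Ctrl the log2 fold change was -2.12 (SE 0.571, adjusted p = 0.186 by edgeR and 0.00365 by DESeq2), and it was -1.0 without Ctrl replicate 2. Against WT it was 0.24 (95% interval -0.32 to 0.80, adjusted p = 0.504) and against CreCtrl 0.18 (-0.22 to 0.58, adjusted p = 0.469). Scaled by library size alone, the value against CreCtrl was -0.04. The set-adjusted value was -0.36 (SE 0.382, adjusted p = 0.5), and 0.27 without the Ctrl set.

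Both Ctrl libraries also carried transcripts of a surface epithelium such as that of the cornea or conjunctiva, seen in a list of 10 genes that was drawn up after the values were seen. The summed level of the list was 2341 CPM in Ctrl replicate 1 and 13360 in Ctrl replicate 2, against 33.5 to 98 in CreCtrl, 37.7 to 1118 in WT, 463 to 1011 in the KO of the WT set, 39.7 to 110 in the KO of the Ctrl set and 155 to 246 in the KO of the CreCtrl set. Krt5, the basal keratin, was at 903 and 5063 CPM in the Ctrl libraries, and Krt12, the keratin of corneal epithelium, at 253 and 3968. Itga6 and Itgb4 had their highest values in the same library, Ctrl replicate 2. Krt5 was also at 376 CPM in KO replicate 2 of the WT set, the highest of the 7 KO libraries for Krt5 as for Itgb4. In KO replicates 1 and 3 of that set Krt5 was at 207 and 163 CPM and Itgb4 at 5.99 and 1.74 CPM. WT replicate 2 had Krt5 at 448 CPM and the highest Itga6 and Itgb4 of WT, at 41.2 and 63.95 CPM. Krt5 had 0 counts in 1 control and 1 KO library of the CreCtrl set, both its replicate 2. Itgb4 was at 30.6 CPM in the former and 3.13 CPM in the latter, a pair picked out after the values were seen. The sum of the list was not 0 in either, at 33.5 CPM in the control and 155 CPM in the KO library. The part of surface epithelium in the Itga6 and Itgb4 differences was not tested.

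**Figure D3:**
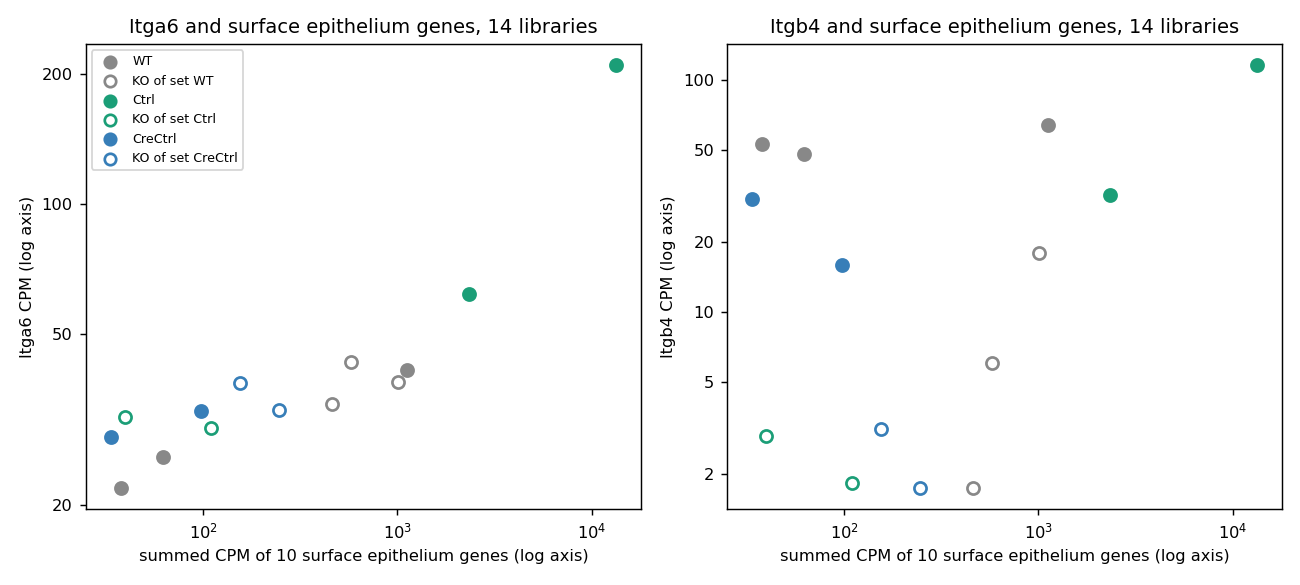
CPM of Itga6 (left) and Itgb4 (right) against the summed CPM of 10 surface epithelium genes in each of the 14 libraries, both axes on log scales, filled points for controls and open points for KO. Itga6 is highest, at 210 CPM, in the Ctrl library with the list's sum at 13360 CPM, and Itgb4 is at 16 to 63.95 CPM in WT and CreCtrl libraries whose sums are 33.5 to 1118 CPM.

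The collagen receptor chains were low, and Itga2 was near the limit of detection. Itga1 read 2.38, 5.34 and 4.39 CPM in WT and 1.84, 2.87 and 1.27 in the KO of that set, 2.44 and 5.32 in Ctrl against 2.54 and 2.33 in KO, and 4.45 and 2.6 in CreCtrl against 2.4 and 2.54 in KO. The KO libraries lay below the controls in the CreCtrl set only, and no comparison called it (set-adjusted log2 fold change -0.79, SE 0.322, adjusted p = 0.0685 by edgeR and 0.0204 by DESeq2). Itga2 had 0, 9 and 42 counts in WT, 0, 0 and 3 in the KO of that set, 15 and 63 in Ctrl, 0 and 0 in its KO, 13 and 12 in CreCtrl, and 5 and 1 in its KO. Against Ctrl, Itga2 was at least 8.89-fold lower in KO, taking 3 counts per library as the floor, with an adjusted p of 0.142 by edgeR. The set-adjusted fit called it lower (adjusted p = 0.0119, also without any 1 library, with a highest adjusted p of 0.0365), but not without the WT set (adjusted p = 0.0618) or without the Ctrl set (adjusted p = 0.0642).

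Itga5, the fibronectin receptor chain, fell in 2 of the 3 sets. It read 51.3, 65.8 and 62.4 CPM in WT against 11.6, 12.9 and 17.2 in KO, and 29.2 and 31.1 in CreCtrl against 10 and 11.7 in KO. In the Ctrl set the values were 20.7 and 17.5 in Ctrl and 11.9 and 20.2 in KO, and they overlapped. The fall was 4.73-fold against WT (log2 fold change -2.24, SE 0.211, adjusted p = 0.000116) and 2.84-fold against CreCtrl (-1.504, SE 0.194, adjusted p = 0.00682), while against Ctrl the log2 fold change was -0.25 (95% interval -1.16 to 0.65, adjusted p = 0.912). The set-adjusted fall was 2.67-fold (-1.42, SE 0.26, adjusted p = 0.00126), and its adjusted p was 0.118 without the WT set. The 7 KO libraries were alike, at 10 to 20.2 CPM, and the controls ran from 17.5 CPM in Ctrl to 65.8 in WT.

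Itga8, a chain best known from mesenchymal cells, was low in every library and lower still in KO. It read 9.6, 14.7 and 12.3 CPM in WT against 3.33, 2.45 and 0 in KO, 3.03 and 5.65 in Ctrl against 0.391 and 0.537 in KO, and 2.91 and 7.81 in CreCtrl against 0.0826 and 0.73 in KO. Like Itgb4, it lay below the controls in KO in all 3 sets, which is 2 of the 10 members beside 10.3% of all genes, and none lay above in all 3, beside 8.54% of all genes. Itga8 fell 12.8-fold against CreCtrl (log2 fold change -3.68, SE 0.893, adjusted p = 0.0378), a call that was lost without CreCtrl replicate 2 (-2.86, adjusted p = 0.125), and 8.6-fold in the set-adjusted fit (-3.11, SE 0.675, adjusted p = 0.0031). The value against CreCtrl was -5.96 without KO replicate 2 of that set and -2.85 without its KO replicate 1. Against WT the log2 fold change was -2.81 with an adjusted p of 0.0675 by edgeR and 0.00824 by DESeq2, and leaving out single libraries gave -3.40 to -2.12 with adjusted p-values of 0.00868 to 0.164 by edgeR. Of these only the fit without KO replicate 3 of the WT set, the library with 0 counts, made the call, at the smallest change of -2.12. Against Ctrl it was -3.21 with an adjusted p of 0.135 by edgeR and 0.00357 by DESeq2.

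Itga9 did not pass the test in any comparison. It read 35.5, 37.3 and 40.2 CPM in WT against 30.1, 53 and 44 in KO, 34.1 and 48.7 in Ctrl against 44.1 and 41.8 in KO, and 37.7 and 31 in CreCtrl against 45.8 and 54.8 in KO. The log2 fold changes were 0.03 (95% interval -0.46 to 0.52), 0.05 (-0.61 to 0.71) and 0.52 (0.10 to 0.94, adjusted p = 0.0813), the first 2 of which were negative when library size alone set the scale. Without CreCtrl replicate 1 the value against CreCtrl passed the threshold (adjusted p = 0.0346).

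Counting the members by library in this way, all KO libraries lay below all controls for 4 members against WT (24.5% of all genes), 5 against Ctrl (22.7%) and 5 against CreCtrl (34.9%). They lay above for 2 members against WT (28.6% of all genes), 0 against Ctrl (18.3%) and 4 against CreCtrl (37.2%).

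Per kb of exon, the first 3 places of the order were held by Itgb1, Itga3 and Itgb8 in every group, and their order differed between KO and control in the WT set only. Places 4 to 7, held by Itga5, Itga6, Itga9 and Itgb4, differed between KO and control in all 3 sets. In WT the order began with Itgb1 at 67.7 ± 6.06 CPM per kb (SD, n = 3), Itga3 at 22.2 ± 2.38 and Itgb8 at 15.1 ± 2.06, and no library of 1 of these overlapped the next. In the KO of the WT set Itgb8 came first at 122 ± 12 CPM per kb, followed by Itga3 at 31.1 ± 3.52 and Itgb1 at 28.8 ± 3.67, whose libraries overlapped. Ctrl and CreCtrl already began with Itgb8, at 238 ± 68.9 and 130 ± 46 CPM per kb (SD, n = 2), then Itgb1 at 45.7 ± 7.75 and 38.5 ± 3.79, then Itga3. Itga8, Itga1 and Itga2 held the last 3 places in every group. Itgb4 was next above them in KO, at 1.22 ± 1.19 CPM per kb (WT set), 0.339 ± 0.111 (Ctrl set) and 0.347 ± 0.14 (CreCtrl set). Of the summed level per length of the 3 beta chains, Itgb8 made up 15 to 20.1% in WT, 76.8 to 83.7% in the KO of that set, 80.9% in both Ctrl libraries, 68.2 to 81% in CreCtrl and 86.7 to 91.1% in the KO of the Ctrl and CreCtrl sets. Of the 7 alpha chains, Itga3 made up 45.3 to 56.3% in WT, 48.7 to 65% in Ctrl, 63.1 to 69% in CreCtrl and 70.3 to 74.7% in the 7 KO libraries. Itga5 made up 23.5 to 29.2% in WT, 5.28 to 9.06% in Ctrl, 13.2 to 14.4% in CreCtrl and 4.35 to 7.97% in KO. In the Ctrl set the Itga5 shares of KO, at 6.13 to 7.97%, lay within those of Ctrl.

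Set against its only alpha partner, Itgb4 was lower for the amount of Itga6 in every KO library than in any control. The margin was small for KO replicate 2 of the WT set, at a ratio of 0.596 beside 0.621 in CreCtrl replicate 1. The level of Itgb4 per kb was 2.39, 2.00 and 3.1 times that of Itga6 in the WT libraries, 0.663 and 0.713 times in Ctrl, and 0.621 and 1.37 times in CreCtrl. In KO the ratio was 0.179, 0.596 and 0.0651 for the mice paired with WT, 0.0778 and 0.117 for those paired with Ctrl, and 0.0673 and 0.105 for those paired with CreCtrl. The ratio in Ctrl replicate 2, where both genes were highest, was close to that in Ctrl replicate 1. Itgb8 and Itgav rose in the same comparisons. The ratio of Itgb8 to Itgav per kb was 1.1 to 1.27 in WT and 2.19 to 4.69 in all other libraries, with 3.38 in both CreCtrl libraries and 3.16 to 3.45 in their KO.

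**Figure D4:**
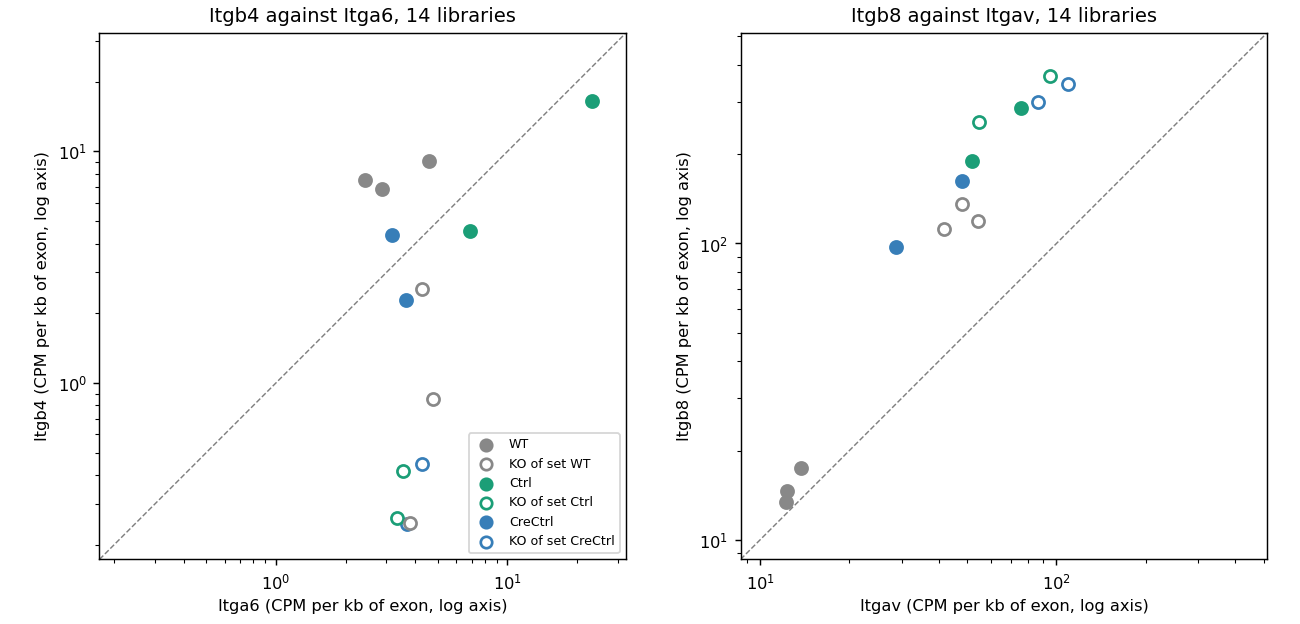
Level per kb of exon of Itgb4 against Itga6 (left) and of Itgb8 against Itgav (right) in the 14 libraries, on log axes with equal scales and a dashed line where both are equal, filled points for controls and open points for KO. The 7 KO libraries spread downwards in Itgb4, to a ratio of 0.0651, at an Itga6 level like that of WT and CreCtrl, while Itgb8 and Itgav lie along 1 band from WT at the lower left.

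The sets share no library, so the size of a KO difference in 1 set could be tested against that in another. Between the WT and Ctrl sets, 4 of the 10 members differed, beside 5.15% of all genes: Itgb8 was more positive in the WT set, by 2.63 (SE 0.371, adjusted p = 0.00779), Itga6 by 2.51 (SE 0.552, adjusted p = 0.0241), and Itga5 and Itgb1 were more negative, by values of -1.85 (SE 0.354, adjusted p = 0.0151) and -0.94 (SE 0.231, adjusted p = 0.0374), all in log2 units. The Itga6 difference was 1.31, and not called, without Ctrl replicate 2, the library with the surface epithelium sum at 13360 CPM. It was 3.15 without Ctrl replicate 1. Its call was also lost without WT replicate 1, KO replicate 2 of the WT set or either KO library of the Ctrl set. The difference was 2.42 to 2.57 in those fits. The Itga5 call was lost without Ctrl replicate 2 (-1.81) or KO replicate 2 of the Ctrl set (-1.4). In the same test of WT against CreCtrl sets, Itgb1 (-1.17, adjusted p = 0.0304) and Itgb8 (1.71, adjusted p = 0.0415) differed, beside 1.49% of all genes. Both of these calls were lost without WT replicate 2 or KO replicate 2 or 3 of the WT set. They were also lost without CreCtrl replicate 1 or either KO library of the CreCtrl set. The Itgb1 call was lost without CreCtrl replicate 2 too, and the Itgb8 call without replicate 1 of WT or of its KO. Between the WT and Ctrl sets the Itgb1 call was lost without WT replicate 1 or 2 or KO replicate 2 or 3 of the WT set. Any single library of the Ctrl set, or either KO library of the CreCtrl set, also ended that call when left out. Between the Ctrl and CreCtrl sets edgeR called 0 members and 0% of all genes, with 3 members and 8.75% of all genes at an unadjusted p under 0.05. For Itgb4 the 3 differences between sets were 2.27 (95% interval 0.033 to 4.504), 0.56 (-1.62 to 2.73) and -1.71 (-4.17 to 0.75), and none was called. Leaving out single libraries left between 1 and 4 members called in the first test and between 0 and 2 in the second, and Itgb8 was called in the first test without any 1 library (highest adjusted p = 0.0412).

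Transcripts of stromal cells and immediate-early genes were lower in KO along with Itga5, Itga8, Itgb1 and Itgb4. The 10 fibroblast markers summed to 7410 to 7558 CPM in WT against 266 to 738 in KO, to 1238 to 2377 in Ctrl against 123 to 319 in KO, and to 1312 to 2645 in CreCtrl against 256 to 328 in KO. All 10 of them were called lower in the set-adjusted fit, as were all 10 endothelial markers and 5 of 6 pericyte and smooth muscle markers tested. The endothelial sum was 145 to 593 CPM in controls and 44.1 to 177 in KO, and the pericyte and smooth muscle sum was 396 to 2092 CPM in controls and 202 to 362 in KO. The myeloid sum was 829 to 1020 CPM in the KO of the WT set, 1824 to 3046 in WT, 949 to 1533 in Ctrl and CreCtrl, 783 to 787 in the KO of the CreCtrl set and 882 and 2823 in the KO of the Ctrl set. Of its 10 markers, 9 were called lower and Csf1r higher (0.52, adjusted p = 0.00743) against WT by edgeR. The edgeR calls were 8 lower and 0 higher against CreCtrl, 0 against Ctrl, and 7 lower and 1 higher in the set-adjusted fit. The 8 rod markers summed to 925 to 4333 CPM in CreCtrl against 218 to 344 in its KO, where all 8 were called lower, and none was called in the other sets or in the set-adjusted fit. The Schwann cell and melanocyte list, whose Mlana, Pmel, Tyrp1 and Dct the RPE also expresses, summed to 732 to 1087 CPM in WT and 2758 to 3046 in its KO, to 2159 to 4122 in Ctrl and 2426 to 3061 in its KO, and to 2109 to 2207 in CreCtrl and 2654 to 2697 in its KO. It was thus lowest in WT, as Itgb8 was, and its part in the Itgb8 difference was not tested. The immediate-early list, with Fos, Jun and Egr1, summed to 3948 to 13030 CPM in controls and 274 to 1763 in KO. No marker of the fibroblast, endothelial, pericyte or myeloid lists was at 0 throughout a group. How much of the fall of these integrin subunits goes with these cells was not tested.

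Of the 17 other integrin subunits, 15 were tested in the set-adjusted fit, 1 rose and 9 fell, with a median log2 fold change of -1.68. Itgav, partner of Itgb8, read 132, 132 and 147 CPM in WT and 449, 586 and 517 in the KO of that set, 558 and 818 in Ctrl, 1019 and 589 in its KO, 517.1 and 309.6 in CreCtrl and 931 and 1175 in its KO. It rose against WT (log2 fold change 1.77, SE 0.139, adjusted p = 5.68e-05) and CreCtrl (1.32, SE 0.283, adjusted p = 0.0276) but was not called against Ctrl (0.22, adjusted p = 0.925). The 9 that fell were Itga4 and Itgb7, Itgae, Itgal, Itgam, Itgax and Itgb2 of leukocytes, and the collagen receptor chains Itga10 (-1.51, SE 0.358) and Itga11 (-3.49, SE 0.922). Itgb5, which with Itgav serves the RPE in taking up shed outer segments, fell slightly against WT (-0.47, adjusted p = 0.0233), was at 0.56 against CreCtrl (adjusted p = 0.0619 by edgeR and 0.00919 by DESeq2), and its set-adjusted value was -0.01 (adjusted p = 0.968). The laminin receptor chain Itga7 rose against WT (1.301, SE 0.247, adjusted p = 0.00381) and was not called in the set-adjusted fit (0.64, adjusted p = 0.0511).

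Many genes of the ligands fell in KO. Among 17 interstitial ligands, 15 fell and 0 rose in the set-adjusted fit (median -3.31), including Svep1, an Itga9 ligand, with a log2 fold change of -4.05 (SE 0.478), Fn1, the fibronectin that Itga5 binds, with -3.996 (SE 0.469), Col6a3 with -3.97 (SE 0.349) and Col1a1 with -3.82 (SE 0.502). By edgeR 0 of them were called against Ctrl, where 10 were at an unadjusted p under 0.05 and DESeq2 called 8 lower. Among 21 basement membrane ligands, 10 fell and 2 rose (median -1.43), with the laminin chains Lama4 and Lama2 at -3.58 (SE 0.376) and -3.30 (SE 0.361), the nidogen Nid1 at -3.28 (SE 0.325) and the perlecan gene Hspg2 at -2.87 (SE 0.218). Col1a1 and Col1a2 of the interstitial list are also on the fibroblast list above.

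Of 31 intracellular adaptors, 13 fell and 7 rose in the set-adjusted fit, with a median of -0.07. The largest changes were in Parvg (-2.34, SE 0.682) and the kindlin Fermt3 (-2.17, SE 0.486), both known from blood cells, and in the tensins Tns2 (-1.94, SE 0.227) and Tns1 (-1.27, SE 0.195). Of the 8 genes that work with the Itga6 and Itgb4 pair, plectin (Plec), which links Itgb4 to keratin, fell in the set-adjusted fit (-1.44, SE 0.143, adjusted p = 1.76e-05), against WT (-1.68, SE 0.146, adjusted p = 7.94e-05) and against CreCtrl (-1.09, SE 0.182, adjusted p = 0.0129), with -1.63 (adjusted p = 0.119) against Ctrl. In the set-adjusted fit the tetraspanins Cd82 (0.75, SE 0.141) and Cd81 (0.60, SE 0.129) rose. The other 5 were not called in that fit, with a median of 0.03 for the list. Against WT edgeR called 2 of the 8 higher and 2 lower. Col17a1 of this list is also on the surface epithelium list above.

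**Figure D5:**
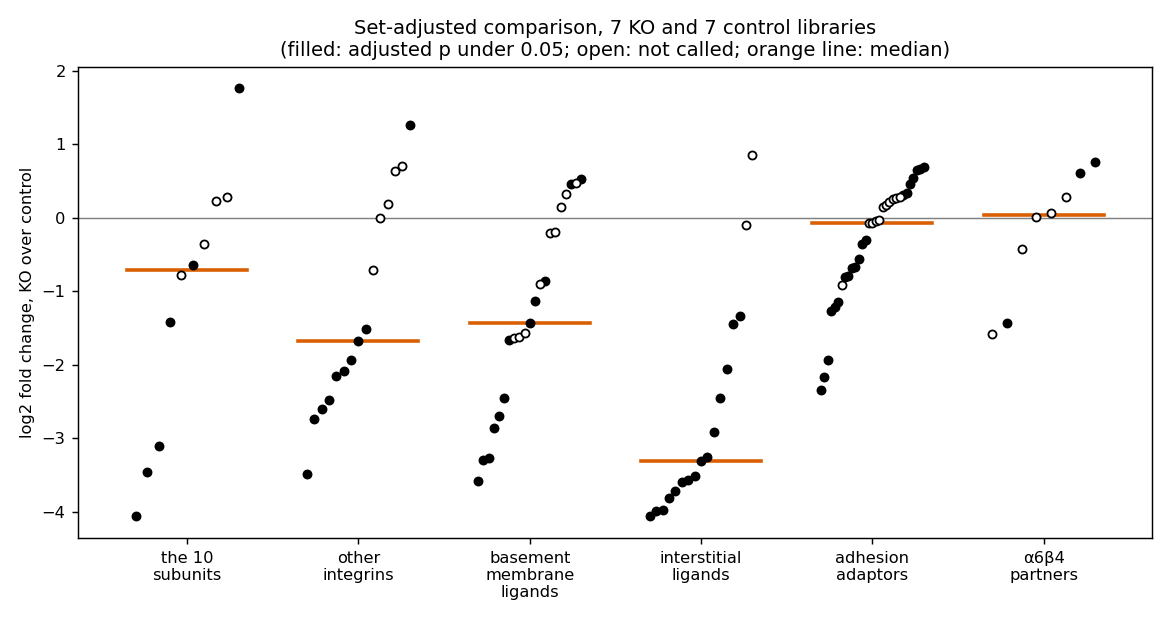
Set-adjusted log2 fold change of KO over control for each tested gene of the 10 subunits and 5 companion lists, 1 point a gene, filled where the adjusted p was under 0.05, with an orange line at the median. The interstitial ligands lie lowest, with a median of -3.31, and the adaptors and α6β4 partners centre at -0.07 and 0.03.

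The genes whose levels over the 14 libraries were most like those of the members are given as a description, since the libraries differ in depth, set and cell content. Itgb8 had a Pearson's r of 0.996 with Tmem56 and 0.995 with Gpm6a and with Mfap3l, and within the 7 KO libraries these were 0.981 to 0.983. Itgb1 was closest to Il6st (0.983), Kank2 (0.967) and Cyth3 (0.963), Itga5 to Col5a2 (0.967), Magi1 (0.966) and Lrrc75a (0.964), and Itga8 to Lhfp (0.966), March3 (0.96) and Psmb9 (0.952). Itgb4 was closest to Filip1 (0.967), Slc25a24 (0.963) and Pthlh (0.959). Itga6 was closest to Esrp2 (0.947), Lad1 (0.938) and Tjp3 (0.925), and within the 7 KO libraries these were 0.582 to 0.693. Itga3 was closest to Ggt1 (0.927), and the nearest genes of Itga1, Itga2 and Itga9 reached 0.846, 0.909 and 0.879.

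In the reference annotation (GENCODE M21, GRCm38) Itgb1 lies on chromosome 8 at 128685654 to 128733200 on the plus strand, with 4.08 kb of exon, Itgb4 on chromosome 11 at 115974709 to 116008412 on the plus strand, with 7.02 kb, and Itgb8 on chromosome 12 at 119158022 to 119238802 on the minus strand, with 11.06 kb. Itga5 lies on chromosome 15 at 103344286 to 103366763 and Itga8 on chromosome 2 at 12106632 to 12301922, both on the minus strand, and Itga6 on chromosome 2 at 71745616 to 71858416 on the plus strand. Exons of Itgb4 share 537 bases with the lincRNA B230344G16Rik on the other strand, which had 0 to 29 counts, and those of Itga8 share 372 bases with the antisense gene E030013I19Rik, which had 0 to 19 counts. The library kit keeps strand, but whether the counting used it is not given in the sources used here, so reads in those shared bases are uncertain. Itga1 shares 685 exonic bases on its own strand with Gm49395, a gene that has no row in the counts table.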

How the data were processed

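RNA was measured in 14 mouse RPE libraries, 1 mouse each. The deposited values are raw counts of reads per Ensembl gene, which the authors made from paired-end reads of stranded poly(A) libraries aligned to GRCm38. The submitters' processing notes name STAR 2.5.2, HTSeq 0.11.2, Cufflinks 2.1.1 and bcl2fastq 2.19. The annotation release and the strand setting of the counting are not given in the sources used here. Of 42687 genes, 42329 (99.2%) were found in GENCODE M21.

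KO was compared with control within each set by edgeR 4.0.16 (R 4.3.3; TMM, filterByExpr, quasi-likelihood test, Benjamini-Hochberg over all genes tested), in 1 fit of all libraries with set as a covariate, and by contrasts between sets in 1 fit of 6 groups. DESeq2 1.42.0, the study's tool, was an alternative, beside other scalings, filters, a replicate block and leaving out each library. The fits were run on counts simulated from the fitted means and dispersions, to check the size and sign of planted changes. That simulation held no shift in cell content, so it cannot speak to one in these data. Fold changes within a set use that set's TMM factors, and CPM use those of all 14 libraries. Levels per length are CPM per kb of exon in the annotation. With 3 against 3 libraries a permutation of 1 gene cannot give a p under 0.1, so p-values come from the fit across genes.

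The members and gene lists were chosen with earlier results of these data known. All 10 members are named. Of each other list the 4 called genes with the largest set-adjusted changes are named, besides the other integrin subunits, and for each member up to 3 genes with the highest correlation of log2 CPM (prior count 2). The surface epithelium list was added after values were seen. Intervals (95%) are those of the fit. The set of each KO library follows the form of its sample title. Promoter windows are from RefSeq.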

Additional observations from a re-analysis of the deposited data

Results flagged for a closer look

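Among the 7 KO libraries, Itgb4 was far from the others in KO replicate 2 of the WT set. It was at 17.9 CPM there and at 1.74 to 5.99 CPM in the other 6. Chance alone marks about 1 group in 20 in this way where the 7 values come from 1 normal distribution. These libraries come from 3 sets and 10 members were screened, so that rate need not hold here. The same library had the highest Krt5 of the KO libraries, at 376 CPM, and the part of surface epithelium in this value was not tested.

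The size of the KO difference was called different between sets for 4 members, by edgeR's test of the difference in 1 fit of all 14 libraries, in log2 units. Between the WT and Ctrl sets it differed for Itga5 by -1.85 (95% interval -2.62 to -1.09), for Itga6 by 2.51 (1.32 to 3.70), for Itgb1 by -0.94 (-1.43 to -0.44) and for Itgb8 by 2.63 (1.82 to 3.43). From the WT to the CreCtrl set it differed for Itgb1 by -1.17 (-1.67 to -0.67) and for Itgb8 by 1.71 (0.912 to 2.498). The Itgb1 call between the WT and Ctrl sets was lost without WT replicate 1 (adjusted p = 0.0577) or WT replicate 2 (adjusted p = 0.0634). It was also lost without KO replicate 2 or 3 of the WT set or any single library of the Ctrl set. Either KO library of the CreCtrl set, left out, ended it too. The Itga6 call there was lost without WT replicate 1, KO replicate 2 of the WT set or Ctrl replicate 2. Leaving out either KO library of the Ctrl set also ended it. The Itga5 call was lost without Ctrl replicate 2 or KO replicate 2 of the Ctrl set. Without WT replicate 2, Itgb1 (adjusted p = 0.0619) and Itgb8 (adjusted p = 0.0826) were not called between the WT and CreCtrl sets. Each of these calls was also lost without KO replicate 2 or 3 of the WT set. The same held without CreCtrl replicate 1 or either KO library of the CreCtrl set. Control genotype and set cannot be told apart in these differences.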

How the results depend on the processing

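Against WT, 4 to 6 members were called under the alternatives, beside 4 in the report. Against Ctrl, where edgeR called 0 members, DESeq2 called 4, a filter of at least 1 count 4, and 1 fit of all 14 libraries 2. Leaving out single libraries gave 0 to 2, with 2 (Itga6 and Itgb4) without Ctrl replicate 1. Against CreCtrl, 1 fit of all 14 libraries left 2 of 4 members (Itga8 at -3.67, adjusted p = 0.113, and Itgb4 at -3.25, adjusted p = 0.0501, were lost), and leaving out single libraries gave 3 to 5. The set-adjusted fit called 2 of 6 without the WT set and 6 to 7 without single libraries. For the difference between the WT and Ctrl sets the count was 1 to 4 without single libraries, lowest without Ctrl replicate 2 and without KO replicate 2 of the Ctrl set. For WT against CreCtrl sets it was 0 to 2, and between the Ctrl and CreCtrl sets 0 to 1, with 2 under a filter of at least 1 count. The cause of these changes was not tested.

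No called log2 fold change turned its sign. Scaled by library size alone, the log2 fold change was 0.00 for Itga6 and -0.22 for Itga9 against WT, -0.05 for Itga3 and Itga9 against Ctrl, -0.05 for Itga3 and -0.04 for Itga6 against CreCtrl, -0.02 for Itga9 set-adjusted, and between sets -0.17 for Itga9 (WT and Ctrl) and 0.00 for Itga1 (Ctrl and CreCtrl). That scaling put the median of all genes at -0.32, -0.11, -0.24 and -0.27 in the 4 comparisons, against -0.08, 0.01, -0.02 and -0.01. Itga9 between the WT and Ctrl sets was -0.03 with RLE normalization and -0.04 with at least 10 counts in every library, and Itga6 set-adjusted was 0.27 without the Ctrl set. Leaving out single libraries, Itga9 ran from -0.08 to 0.28 against WT, and against Ctrl Itga3 ran from -0.19 to 0.28, Itga5 from -0.69 to 0.08 and Itga9 from -0.17 to 0.33. Itgb1 ran from -0.25 to 0.08 against CreCtrl. Between the WT and Ctrl sets Itga1 ran from -1.09 to 0.12, Itga8 from -0.11 to 1.13 and Itga9 from -0.24 to 0.37. In WT against CreCtrl sets Itga2 ran from -5.07 to 0.00, Itga6 from -0.01 to 0.48 and Itgb4 from -0.59 to 1.05, and between the Ctrl and CreCtrl sets Itga1 ran from -0.62 to 0.55, Itga3 from -0.41 to 0.05 and Itga8 from -0.42 to 2.68.

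Libraries with the same replicate number do not share a mouse or a stated day, and their deviations correlated at -0.019, 0.07 and 0.179 (WT set), -0.006 (Ctrl set) and 0.125 (CreCtrl set). KO replicate 1 of the WT set correlated best with WT replicate 2. With the replicate block 1 member was called against Ctrl (Itgb4, -4.75, adjusted p = 0.0351), 4 against WT, 4 against CreCtrl and 6 set-adjusted, and Itga9 against WT was 0.00. Over all genes the block called 113 against Ctrl and 3824 against CreCtrl.

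Over all genes, 0 were called against Ctrl, with 1191 by DESeq2, 1658 with at least 1 count and 648 in 1 fit of all libraries. Against CreCtrl 2529 were called, with 3981, 4793 and 704 under the same alternatives. Between the WT and Ctrl sets 909 were called, with 596 under RLE, 548 by library size alone and 2262 with at least 1 count. For WT against CreCtrl sets 264 were called, with 1102 at 1 count and 487 at 10 counts, and between the Ctrl and CreCtrl sets 0, with 883 at 1 count. Calls were higher in KO for 45.9% against WT (30.3% by library size alone), 22.7% against CreCtrl (7.36%, and 41.3% by DESeq2) and 52% set-adjusted (25%). With 2 libraries a group, the Ctrl and CreCtrl sets leave wide intervals, and Itga1, Itga2 and Itga8 rest on few counts.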
